A study of Mus musculus with 12 samples.

Results

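The 9 genes described here encode the ubiquitin-editing protein A20 and its partners (Tnfaip3, Tnip1, Tnip3 and Traf1) and the proteins that destroy cytokine mRNA (Zc3h12a, Zc3h12c, Zfp36, Zfp36l1 and Zfp36l2). They were all taken by symbol from a count table of 54532 genes, and each symbol matched 1 row. RNA sequencing measured them in N9, an established mouse line derived from microglia, which are the macrophages of the brain. By its title the study concerns sugar use by these cells in Alzheimer disease. There were 4 groups of 3 libraries each, numbered as in the labels. High-fructose cultures held the control medium with 15 mM fructose and received LPS. High-glucose cultures held it with 15 mM glucose and received LPS. The LPS group had the control medium and LPS, and the last group had the control medium alone. All media shared glucose-free DMEM, dialysed serum, and the control level of 3 mM glucose and 5 mM fructose. The labels do not say whether 15 mM was the final concentration or was added to that level. Cells spent 18 h in their medium, and LPS, the bacterial cell wall component that Toll-like receptor 4 recognises, was given at 1 µg/ml for 6 h. No group had raised sugar without LPS. Whether replicate libraries stem from independently grown cells is not stated, so p-values here reflect only library-to-library spread, which could be purely technical.

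Toll-like receptor 4 switches on NF-kB, and NF-kB in turn switches on the genes of its own brakes. A20 removes and rebuilds ubiquitin chains on signalling proteins of the pathway, and the ABIN proteins, encoded by the Tnip genes, bind A20 and ubiquitin chains. A separate set of brakes works on the mRNA: tristetraprolin, the product of Zfp36, and its relatives bind AU-rich elements in the 3′ untranslated region (UTR) of cytokine mRNAs and bring in the CCR4-NOT deadenylase, while Regnase-1, the product of Zc3h12a, cuts stem-loops in such mRNAs. In macrophages these factors limit how much TNF and interleukin 6 is made.

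Total counts ran from 15453776 to 17956772 per library. Of 15 microglia and macrophage markers, 11 averaged at least 1 FPKM (fragments per kilobase of exon and scaled library total, as deposited) in each group. The markers Aif1, Cx3cr1, P2ry12 and C1qa were below that level. Of the 8 neuronal markers, Tubb3 was at 15.0 to 17.1 FPKM with high fructose, 6.92 to 8.40 FPKM with high glucose, 5.70 to 7.34 FPKM with LPS in control medium and 1.77 to 2.41 FPKM in control medium. Map2 was at 0.947 to 1.08 FPKM with LPS, against 1.30 to 1.39 FPKM in control medium. Rbfox3, Syt1, Gad1 and Nefl had at most 7 counts in any library, Snap25 at most 12 and Slc17a7 at most 22.

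Sequences from RefSeq (GRCm38.p6) covered 8 of the 9 genes with 10 promoter windows of 300 bases, 250 before the annotated start and 50 after it. Zfp36l2 had no entry. The consensus of the NF-kB binding site, 10 bases long and read on both strands, was found in the windows of Tnfaip3, Tnip1 and Tnip3. Across all 32851 windows the share with a match was 4.51%, and 5.14% of 27025 genes had a match in any window. The 250 bases before the start of these 3 genes are printed with every match in capitals, because they show how close to the start the matches lie.
Tnfaip3, chr10:19015411-19015660, minus strand: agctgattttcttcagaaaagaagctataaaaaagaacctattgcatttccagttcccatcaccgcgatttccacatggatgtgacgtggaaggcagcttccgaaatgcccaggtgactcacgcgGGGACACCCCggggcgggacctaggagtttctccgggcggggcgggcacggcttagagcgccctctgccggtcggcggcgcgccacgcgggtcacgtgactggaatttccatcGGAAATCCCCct
Tnip1, chr11:54962941-54963190, minus strand: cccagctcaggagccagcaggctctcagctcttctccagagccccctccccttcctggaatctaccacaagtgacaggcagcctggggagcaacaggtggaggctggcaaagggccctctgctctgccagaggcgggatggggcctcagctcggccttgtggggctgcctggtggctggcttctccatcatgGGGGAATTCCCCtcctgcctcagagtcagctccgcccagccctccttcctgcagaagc
Tnip3, chr6:65590148-65590397, plus strand: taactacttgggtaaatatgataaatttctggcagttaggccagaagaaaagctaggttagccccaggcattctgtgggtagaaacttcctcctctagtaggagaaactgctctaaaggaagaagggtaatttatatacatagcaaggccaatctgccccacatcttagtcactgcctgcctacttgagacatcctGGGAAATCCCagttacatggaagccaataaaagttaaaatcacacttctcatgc
In Tnfaip3 the match that begins at position -12 from the start reads GGAAATCCCC, which is the consensus on the other strand, and another, GGGACACCCC, begins at -125. In Tnip1, 3 overlapping matches form 1 palindromic stretch from position -58. In Tnip3 the match reads GGGAAATCCC and begins at -54. The Tnfaip3 bases lie almost wholly inside the GENCODE gene, which ends at 19015657, and the Tnip3 bases lie wholly inside theirs, which runs from 65525313 to 65634040, so they precede an internal start. The windows of Zc3h12a, Zc3h12c, Traf1, Zfp36 and Zfp36l1 held no NF-kB match. The Zfp36 window held the consensus of the CArG box, the site of serum response factor, as CCATAAAAGG at position -58, and 1.63% of all windows hold that motif. The Zfp36 bases before the start, 28379229 to 28379478, also lie wholly inside the GENCODE gene, which runs from 28376784 to 28380253. They too precede an internal start. The core of the interferon-stimulated response element (3.44% of windows) and the cyclic AMP response motif TGACGTCA (1.79%) occurred in no window of these genes.

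AU-rich elements, which the tristetraprolin family binds, were also counted in the members' own mRNAs. The AU-rich heptamer, TATTTAT in DNA letters, was searched on the mRNA strand in the longest annotated 3′ UTR of each gene (GENCODE M21, GRCm38). It occurred in 6 of the 9 genes, 3 times each in Zfp36, Zfp36l1 and Zfp36l2, in 2 places each in Tnfaip3 and Zc3h12c, and once in Tnip3. It was not found in Tnip1, Traf1 or Zc3h12a. Of 21024 protein-coding genes 27.6% had it, or 38.3% of the 7440 genes with a 3′ UTR of 1000 to 3000 bases. The 3′ UTRs of the 9 genes were 752 to 4062 bases long. Of the 30 listed target transcripts of decay factors, 23 had the heptamer, and Tnf had it 8 times. The stretch of 30 bases that holds the most heptamers (capitals) is printed for Tnf, for Zfp36 and, with 1 heptamer, for Zfp36l2, to set the target beside the factors' own mRNAs.
Tnf, chr17:35199678-35199707, minus strand: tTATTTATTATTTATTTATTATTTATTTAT
Zfp36, chr7:28376962-28376991, minus strand: gggcccttTATTTATgacgacttTATTTAT
Zfp36l2, chr17:84184906-84184935, minus strand: aactTATTTATtatcttgtgaaaagtatac

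The first comparison asked what LPS did in control medium. Of the 9 genes, 8 had enough counts to be tested, and 7 of these 8 rose with LPS, while Zfp36l2 did not pass the test and Zfp36l1 was too low to test. Traf1 rose 14.9-fold, Zc3h12a 11.8-fold, Tnfaip3 5.02-fold and Zc3h12c 4.48-fold. Tnip1 rose 2.68-fold, Tnip3 2.54-fold and Zfp36 1.44-fold. A gene counts as changed at an adjusted p below 0.05 (edgeR's quasi-likelihood test, Benjamini-Hochberg over 12766 genes), and 28.8% of all tested genes passed in this comparison, 15.2% as higher and 13.6% as lower. In FPKM the LPS libraries lay wholly above the control libraries for the same 7 genes, a separation seen in 44.3% of all genes (22.7% higher, 21.7% lower). The median of the 8 genes was 1.79 on the log2 scale, against -0.00399 for all genes tested. The neuronal list summed to 6.84 to 8.47 FPKM with LPS, against 3.34 to 3.88 FPKM in control medium. Within it Tubb3 averaged 6.76 FPKM with LPS, against 2.13 FPKM. Map2 was lower with LPS, at 1.005 FPKM against 1.343 FPKM, and the rest averaged at most 0.138 FPKM in both groups. The part of these markers in the rises of the 7 genes was not tested. In bulk RNA, more RNA per cell and more cells that express a gene cannot be told apart.

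**Figure D1:**
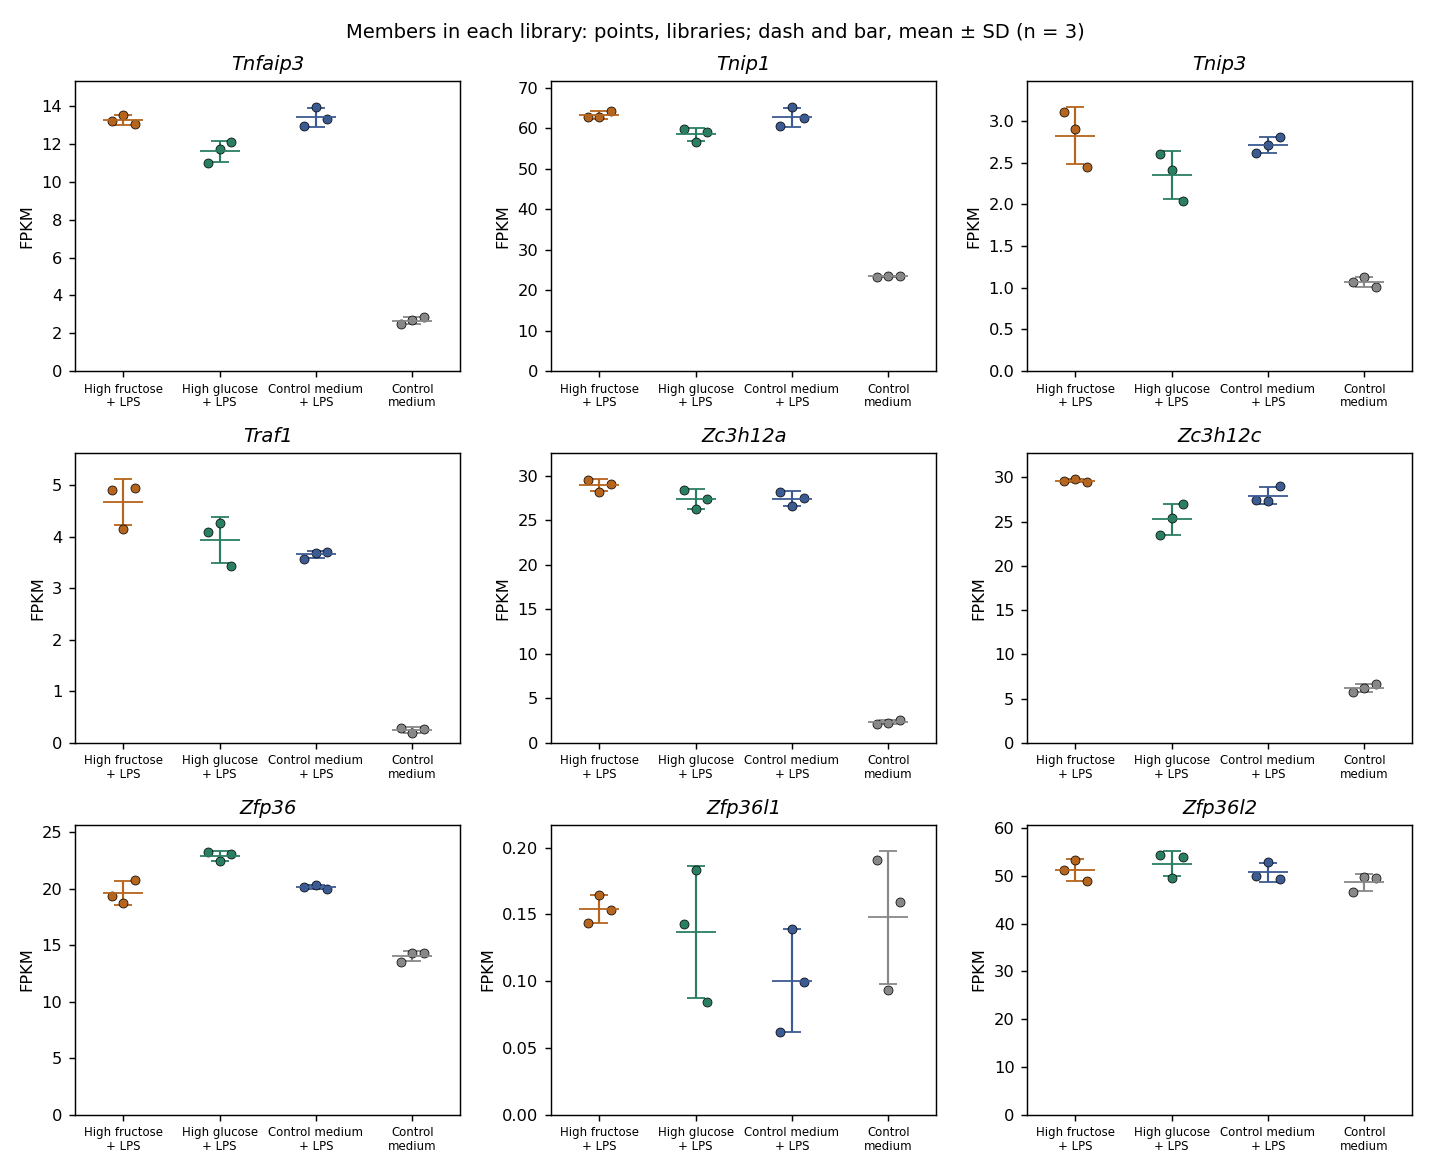
FPKM of the 9 genes (vertical axes, each from 0) in the 12 libraries, by group. Points are libraries, and dashes with bars are means ± SD of 3; in Tnfaip3, Tnip1, Tnip3, Traf1, Zc3h12a, Zc3h12c and Zfp36 every library with LPS lies above every library without it.

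Tnfaip3 (ENSMUSG00000019850, chromosome 10 at 19000910 to 19015657) encodes A20 itself. It stood at 13.0, 13.9 and 13.3 FPKM in LPS libraries 1, 2 and 3, against 2.46, 2.67 and 2.86 FPKM in control-medium libraries 1, 2 and 3. The groups lay far apart, with a log2 fold change of 2.33 ± 0.06 (SE; adjusted p = 7.00e-15), the 178th highest of 12766 genes. Tnip1 (ENSMUSG00000020400, chromosome 11 at 54910785 to 54962917), which encodes the A20-binding protein ABIN-1, was the most abundant of the 9 genes with LPS. It had 60.5, 65.2 and 62.6 FPKM with LPS, against 23.2, 23.5 and 23.4 FPKM without. The control libraries barely differed from each other, and the change was 1.42 ± 0.05 (adjusted p = 5.80e-14).

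Tnip3 (ENSMUSG00000044162, chromosome 6 at 65525313 to 65634040) encodes ABIN-3, which in human cells blocks NF-kB activation. It was measured at 2.62, 2.71 and 2.81 FPKM with LPS, against 1.07, 1.13 and 1.01 FPKM in control medium. The levels were low and the groups separate, by 1.34 ± 0.11 (adjusted p = 1.97e-08). Traf1 (ENSMUSG00000026875, chromosome 2 at 34941750 to 34961772) encodes an adaptor that joins TRAF2 at TNF family receptors. It went up the furthest, to 3.57, 3.69 and 3.70 FPKM with LPS, against 0.284, 0.183 and 0.264 FPKM in control medium. The control values rest on 44, 29 and 44 counts, and the log2 fold change of 3.90 ± 0.14 (adjusted p = 2.34e-13) was the 71st highest of all genes. FPKM divides by the full set of annotated exons, which for Tnip3 is 10916 bases and for its longest coding transcript 3769, so its level relative to other genes is a low estimate. For Traf1 the 2 lengths are 8819 and 3436 bases, for Tnfaip3 7226 and 4422, and for Tnip1 3539 and 2973.

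Of the mRNA decay factors, the Regnase genes had the largest changes. Zc3h12a (ENSMUSG00000042677, chromosome 4 at 125118423 to 125127840) had 28.2, 26.6 and 27.5 FPKM with LPS, against 2.12, 2.26 and 2.60 FPKM in control medium. Its change of 3.56 ± 0.07 (adjusted p = 1.51e-16) ranked 86th among all genes. Zc3h12c (ENSMUSG00000035164, chromosome 9 at 52111344 to 52168572) encodes the related Regnase-3. It reached 27.4, 27.4 and 29.1 FPKM with LPS, against 5.79, 6.24 and 6.69 FPKM in control medium, a change of 2.16 ± 0.06 (adjusted p = 1.37e-14). Per length, then, the transcripts of both endonucleases were level with LPS and unequal without it. Zc3h12a made up 49.6 ± 1.09% of the summed FPKM of the pair with LPS (SD, n = 3), against 27.1 ± 0.781% in control medium, and the sum itself was 55.4 ± 1.28 FPKM with LPS, against 8.56 ± 0.695 FPKM.

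In the tristetraprolin family the changes were smaller in size. Zfp36 (ENSMUSG00000044786, chromosome 7 at 28376784 to 28380253) had 20.1, 20.3 and 19.99 FPKM with LPS, against 13.5, 14.3 and 14.3 FPKM in control medium. The rise of 0.52 ± 0.05 (adjusted p = 5.77e-07) ranked 1230th among all genes. Zfp36l2 (ENSMUSG00000045817, chromosome 17 at 84183931 to 84187947), whose product binds the same elements, was the most abundant family member per length in all 4 groups. It had 49.97, 52.9 and 49.3 FPKM with LPS, against 46.7, 49.7 and 49.6 FPKM in control medium. These ranges overlap, and the change of 0.06 (95% interval -0.05 to 0.17) did not pass (adjusted p = 0.457). Zfp36 made up 28.4 ± 0.594% of the family's FPKM with LPS, against 22.3 ± 0.0586% in control medium. FPKM divides by 3470 bases for Zfp36, whose longest coding transcript has 2790, while both lengths are 3530 for Zfp36l2. The Zfp36 shares may therefore be low estimates.

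Zfp36l1 (ENSMUSG00000021127, chromosome 12 at 80107754 to 80113013), the remaining family member, was near the limit of detection. It had 3, 7 and 5 counts with LPS, against 10, 5 and 9 counts in control medium, and 4 to 9 counts in each library with raised sugar. The summed counts were 15 with LPS, against 24 without, and their ratio, scaled to library totals, was 0.641 with a 95% interval of 0.313 to 1.27 (exact binomial, counting error only). Of its exonic bases, 55.9% overlap Gm26669 on the other strand, which had no read in any library. No source used here gives the strand setting, so reads of the 2 genes cannot be told apart. Overlap with other-strand genes was at most 3.6% of exonic bases for the other 8 genes.

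**Figure D2:**
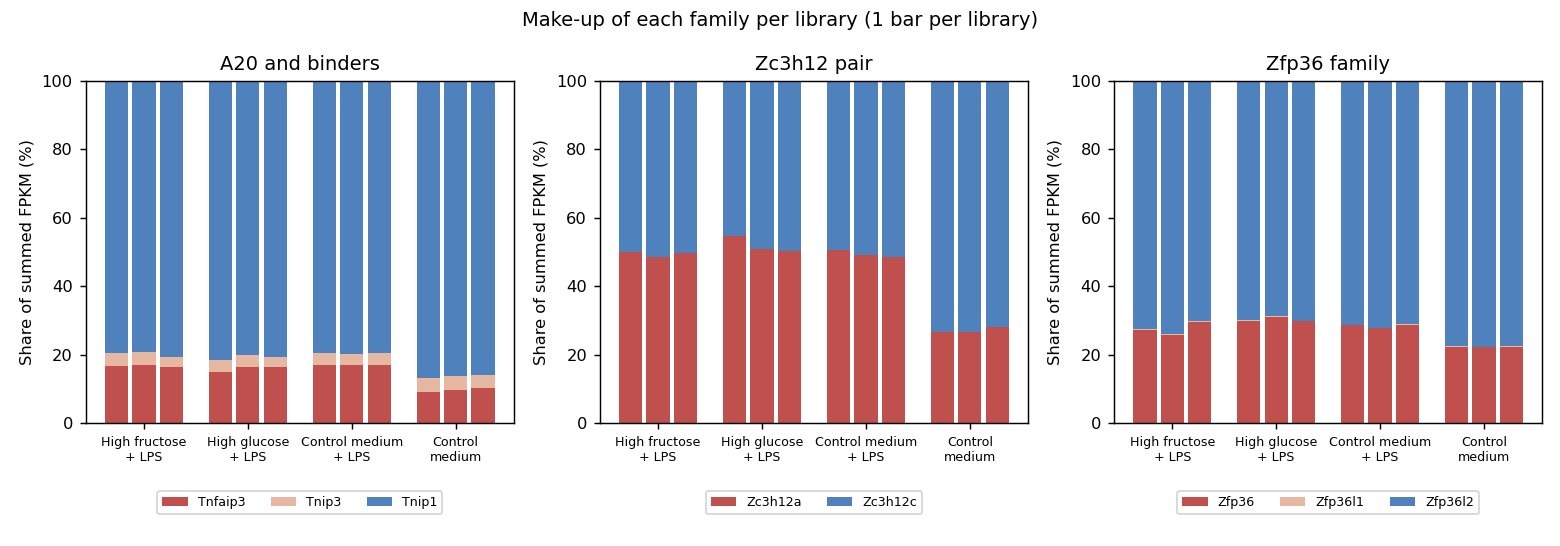
Share of each gene in the summed FPKM of the genes of its panel (vertical axes, %), with 1 bar per library and the groups side by side. Tnfaip3 shares a panel with Tnip1 and Tnip3 as A20 and its binders, not as a family. Zc3h12a takes 48.6 to 50.8% of its pair with LPS in control medium, against 26.6 to 28.03% in control medium alone, and Zfp36l2 holds the most of its family in every library.

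Other genes of the pathways came from lists. Of 27 tested genes of the A20 network (ubiquitin ligases, deubiquitinases and kinases of the pathway), 8 rose and 1 fell (33.3%, against 28.8% of all genes), with a median of 0.08 against -0.00399 for all genes. Rnf31, which encodes the catalytic subunit of the linear ubiquitin ligase, rose by 0.75 ± 0.07, and Birc3, for a ubiquitin ligase that TRAF1 and TRAF2 recruit, by 0.81 ± 0.10. The kinase gene Ikbkb rose by 0.38 and Tank, for a TRAF-binding adaptor, by 0.35. The gene that fell was Rbck1, for a partner of RNF31 (-0.15, adjusted p = 0.0443), named after its value was seen. Of 42 tested genes of the mRNA decay machinery, 12 rose and 2 fell (33.3%, against the same 28.8%; median 0.04). Mapkapk2, for the kinase MK2 that phosphorylates tristetraprolin, rose by 1.16 ± 0.04 and stood at 338 FPKM with LPS, against 151 FPKM without. Btg1, which binds the deadenylase, rose by 0.91, the decapping enzyme gene Dcp2 by 0.51, and Zc3h12d, the fourth Regnase gene, by 2.90 ± 0.54 at a mean of 0.349 FPKM with LPS, against 0.0455 FPKM without. Tob1 (-0.41) and Mapk14 (-0.18) fell, both named after their values were seen.

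The transcripts listed as targets of these decay factors rose with LPS in 21 of 25 tested cases (15.2% of all genes rose) and fell in 1, Csf1 (-0.15, named after its value was seen). Their median was 2.07, with or without the 2 genes that had no read in control medium set at a bound of 3 counts over the group. Tnf, the best known target of tristetraprolin, had 137, 137 and 141 FPKM with LPS, against 8.52, 9.47 and 10.4 FPKM in control medium. Its rise of 3.87 ± 0.07 stood beside rises of 3.90 ± 0.14 for Traf1 and 3.56 ± 0.07 for Zc3h12a. The chemokine genes Cxcl2 and Ccl7 rose by 6.59 and 2.92, and Socs3, for an inhibitor of cytokine receptors, by 2.07.

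**Figure D3:**
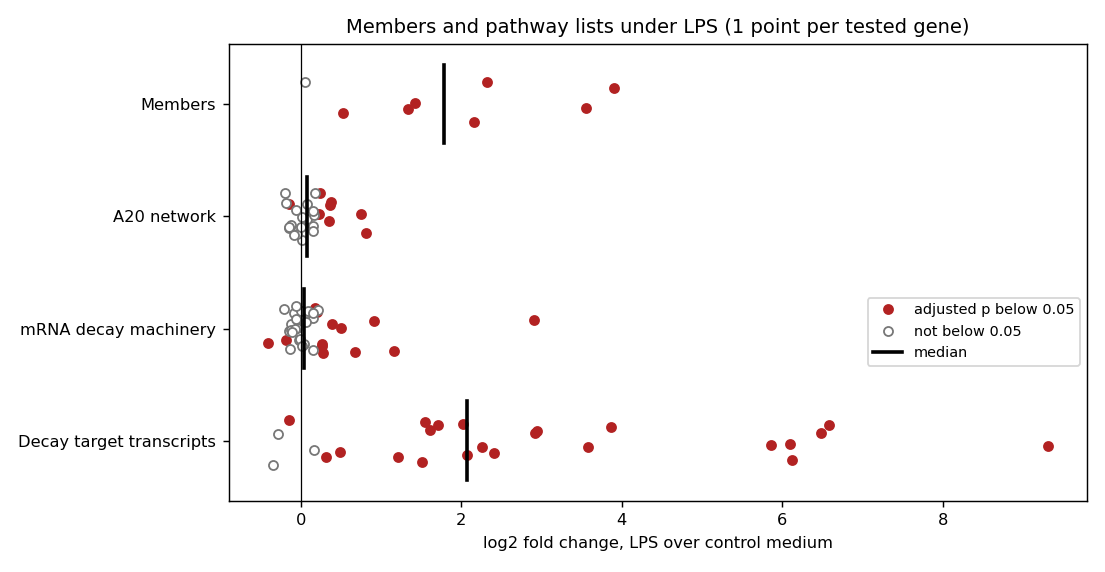
log2 fold change of LPS over control medium (horizontal axis) for the 8 tested genes and for 3 lists of related genes, with 1 point per gene, filled at an adjusted p below 0.05, and a bar at the median. The medians are 1.79 for the 8 genes, 0.08 for the A20 network, 0.04 for the decay machinery and 2.07 for the targets; values above 6 in the targets come from genes with few or no reads in control medium, apart from Cxcl2.

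High glucose was compared next with LPS in control medium, and no member passed the test. By edgeR 0 of 8 genes were called, against 1.56% of all genes (0.587% higher, 0.971% lower). An unadjusted p below 0.05 was found for 4 of the 8, against 1780 of all 12766 genes. DESeq2 called 1 of the 8, Tnfaip3, and limma on log2 FPKM called 0. In FPKM the libraries did not overlap for 5 of the 8 genes, 1 higher and 4 lower, a separation seen in 19.1% of all genes (8.98% higher, 10.1% lower). Tnfaip3 and Zfp36 had the smallest adjusted p-values and differed in opposite directions. Tnfaip3 had 11.01, 11.7 and 12.1 FPKM in high-glucose libraries 1, 2 and 3, against 13.0, 13.9 and 13.3 FPKM with LPS in control medium. Each high-glucose value was below each LPS value, by 13.1% in the fit, with a log2 difference of -0.20 and a 95% interval of -0.32 to -0.08 (adjusted p = 0.0922; 0.0456 with DESeq2). Without LPS, control medium averaged 2.66 ± 0.199 FPKM (SD, n = 3).

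Zfp36 had 23.2, 22.4 and 23.1 FPKM with high glucose, against 20.1, 20.3 and 19.99 FPKM with LPS in control medium. Each high-glucose value was the higher, by 13.9% in the fit, a log2 difference of 0.19 with a 95% interval of 0.08 to 0.30 (adjusted p = 0.0924). Zc3h12c had 23.5, 25.4 and 27.0 FPKM with high glucose, against 27.4, 27.4 and 29.1 FPKM, a difference of -0.14 (-0.26 to -0.02; adjusted p = 0.278). Library 1 was the lowest of the 3 high-glucose libraries for Tnfaip3 and Zc3h12c. The same library was the highest for Tnip1, Tnip3, Zc3h12a, Zfp36 and Zfp36l2. Tnip1 differed by -0.10 (-0.19 to -0.00315; adjusted p = 0.339) and Tnip3 by -0.20 (-0.41 to 0.01; adjusted p = 0.401). For Zc3h12a the estimate was 0.00132, with an interval of -0.12 to 0.12, and the Traf1 and Zfp36l2 intervals also included 0 (-0.10 to 0.32 and -0.06 to 0.17).

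Tnf was lower with high glucose, at 104, 110 and 100 FPKM, against 137, 137 and 141 FPKM with LPS in control medium (-0.39 ± 0.06, adjusted p = 0.00202). Of the target transcripts 3 of 25 were called (12%, against 1.56% of all genes), Tnf as lower and Socs3 (0.26) and Ier3 (0.36) as higher, Ier3 being named after its value was seen. Of the A20 network 0 of 27 genes were called by edgeR. An unadjusted p below 0.05 was found for 2 of these 27, against 1780 of all 12766 genes. Of the decay machinery 1 of 42 was called, Mapk14, for the p38 kinase that activates MK2 (-0.18, adjusted p = 0.0445). The list of epithelial markers ran from 0.0 to 8.47 FPKM over the high-glucose libraries, against 0.013 to 1.59 FPKM with LPS in control medium. Its part in these results was not tested.

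With high fructose, Traf1 was the member that passed, 1 of 8 against 4.91% of all genes (2.37% higher, 2.55% lower). Traf1 had 4.90, 4.15 and 4.95 FPKM in high-fructose libraries 1, 2 and 3, against 3.57, 3.69 and 3.70 FPKM with LPS in control medium. All 3 high-fructose values were higher, by 28.003% in the fit, a log2 difference of 0.36 ± 0.10 (95% interval 0.15 to 0.57; adjusted p = 0.0468). The call is at the edge of the threshold: it was kept without high-fructose library 2 (adjusted p = 0.0187) and lost without any other library of the comparison, namely high-fructose 1 (0.156) or 3 (0.171) or LPS 1 (0.171), 2 (0.132) or 3 (0.126), and limma gave an adjusted p of 0.0820 to 0.391. The neuronal list of 8 genes summed to 16.1 to 18.2 FPKM in the same 3 libraries, against 6.84 to 8.47 FPKM with LPS in control medium, nearly all of it Tubb3, with Gad1, Nefl and Rbfox3 at or near 0. The astrocyte list summed to 13.8 to 14.1 FPKM with high fructose, against 11.7 to 12.9 FPKM. The oligodendrocyte list summed to 3.87 to 4.53 FPKM, against 3.32 to 3.48 FPKM, with Olig2 and Sox10 at no read in any library. The endothelial list was not higher, at 2.99 to 3.12 FPKM with high fructose, against 3.0 to 3.46 FPKM with LPS in control medium. The part of these markers in the Traf1 result was not tested.

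The other 7 genes did not pass with high fructose. Zc3h12c had 29.6, 29.8 and 29.5 FPKM, against 27.4, 27.4 and 29.1 FPKM with LPS in control medium. These groups did not overlap, which held for 2 of the 8 genes, both higher, and for 20.5% of all genes (10.1% higher, 10.4% lower), but the difference of 0.09 had an interval of -0.03 to 0.21 (adjusted p = 0.533). Zc3h12a differed by 0.08 (-0.04 to 0.20) and Tnip3 by 0.06 (-0.15 to 0.27). Tnfaip3 (-0.01, interval -0.13 to 0.11), Tnip1 (0.02, -0.08 to 0.11), Zfp36 (-0.04, -0.15 to 0.08) and Zfp36l2 (0.02, -0.09 to 0.13) were close to their LPS levels, and the intervals allow changes of at most 0.15 in either direction on the log2 scale.

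Tnf was lower with high fructose as well, at 108, 112 and 120 FPKM, against 137, 137 and 141 FPKM (-0.29 ± 0.06, adjusted p = 0.00571). Zfp36 had 19.3, 18.7 and 20.8 FPKM there, a range that spans its values with LPS in control medium. Both sugar comparisons share the LPS libraries. Of the target transcripts 4 rose and 3 fell among 25 (28%, against 4.91% of all genes). Ccl7 (-0.75 ± 0.06) and Ccl2 (-0.61 ± 0.06), chemokine genes that fell, had the smallest adjusted p-values. Those that rose were Ier3 (0.54), Nfkbiz (0.31), Plaur (0.27) and Socs3 (0.27), named after their values were seen. Of 42 tested genes of the decay machinery, 1 rose and 2 fell (7.14%, against 4.91% of all genes). Btg1 rose (0.33) and Cnot6l, a deadenylase subunit gene, fell (-0.32), as did Dcp2 (-0.29, named after its value was seen). By edgeR 0 of 27 A20 network genes were called. An unadjusted p below 0.05 was found for 2 of these 27, against 1984 of all 12766 genes.

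**Figure D4:**
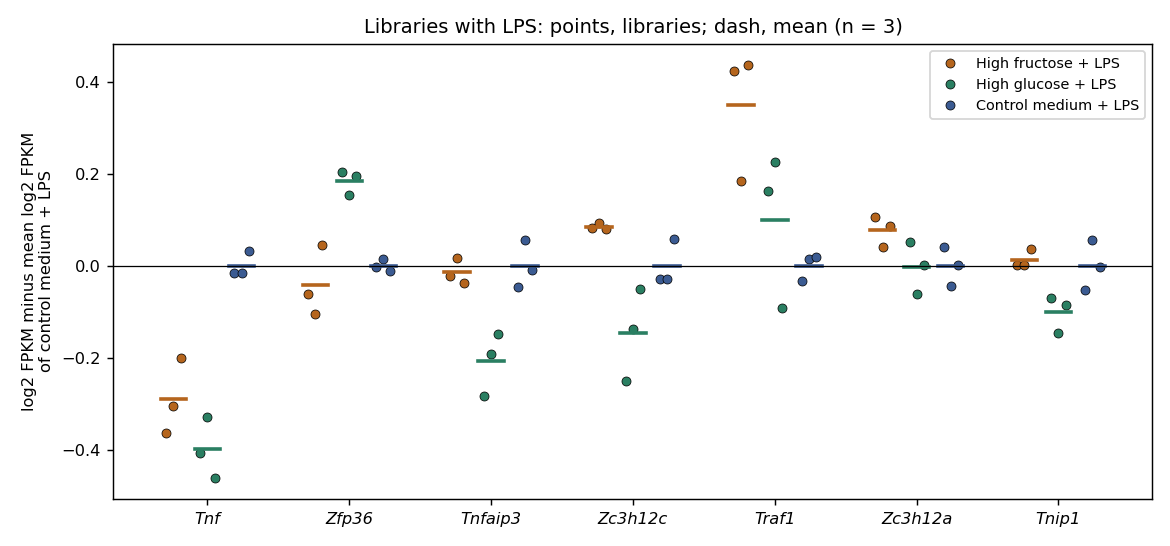
log2 FPKM of each library with LPS minus the mean log2 FPKM of LPS in control medium (vertical axis), for Tnf and 6 of the 9 genes, with points for libraries and dashes for means of 3. All high-glucose points of Zfp36 lie above 0 and all those of Tnfaip3, Zc3h12c and Tnip1 below it, while Tnf lies below 0 in both sugars.

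The sugars were compared directly, high fructose over high glucose, both with LPS. Here 2 of the 8 genes passed, 1 in each direction, against 3.72% of all genes (1.84% higher, 1.88% lower). Zc3h12c was higher with high fructose, at 29.6, 29.8 and 29.5 FPKM, against 23.5, 25.4 and 27.0 FPKM with high glucose. The high-fructose libraries were tightly grouped and the high-glucose libraries spread out below them, with a difference of 0.23 ± 0.06 (17.2%; adjusted p = 0.0329). Zfp36 was lower with high fructose, at 19.3, 18.7 and 20.8 FPKM, against 23.2, 22.4 and 23.1 FPKM with high glucose, by -0.22 ± 0.05 (adjusted p = 0.0216). Both calls depended on which libraries were used. Zc3h12c passed without high-glucose library 3 (adjusted p = 0.0207) but not without high-glucose library 1 (0.136) or 2 (0.0909) or high-fructose library 1 (0.0801), 2 (0.0841) or 3 (0.0836). Zfp36 passed without high-glucose library 2 or high-fructose library 3 but not without high-glucose library 1 (0.0664) or 3 (0.0715) or high-fructose library 1 (0.0727) or 2 (0.0966).

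Of the remaining 6 genes, Tnfaip3 had 13.2, 13.6 and 13.0 FPKM with high fructose, against 11.01, 11.7 and 12.1 FPKM with high glucose. The groups did not overlap, and the difference of 0.19 (interval 0.07 to 0.31) missed the threshold (adjusted p = 0.0778). Tnip1, Zc3h12c and Tnfaip3 lay apart upwards and Zfp36 downwards, 4 of 8 genes against 17.8% of all (9.27% higher, 8.48% lower). Tnip3 (0.26, adjusted p = 0.196), Traf1 (0.25, 0.213), Tnip1 (0.11, 0.205), Zc3h12a (0.08, 0.565) and Zfp36l2 (-0.04, 0.800) did not pass. Among the 25 tested targets, 2 were lower with high fructose, Ccl7 (-0.65) and Ccl2 (-0.54). Another 2 were higher, Plaur (0.25) and Csf1 (0.17), both named after their values were seen. Together they were 16% of the targets, against 3.72% of all genes. Of the decay machinery 1 of 42 genes was called (2.38%, against 3.72% of all genes). It was Hnrnpd, for the AU-rich element binding protein AUF1 (-0.22, adjusted p = 0.0181). By edgeR 0 of 27 A20 network genes passed. An unadjusted p below 0.05 was found for 2 of these 27, against 1995 of all 12766 genes.

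**Figure D5:**
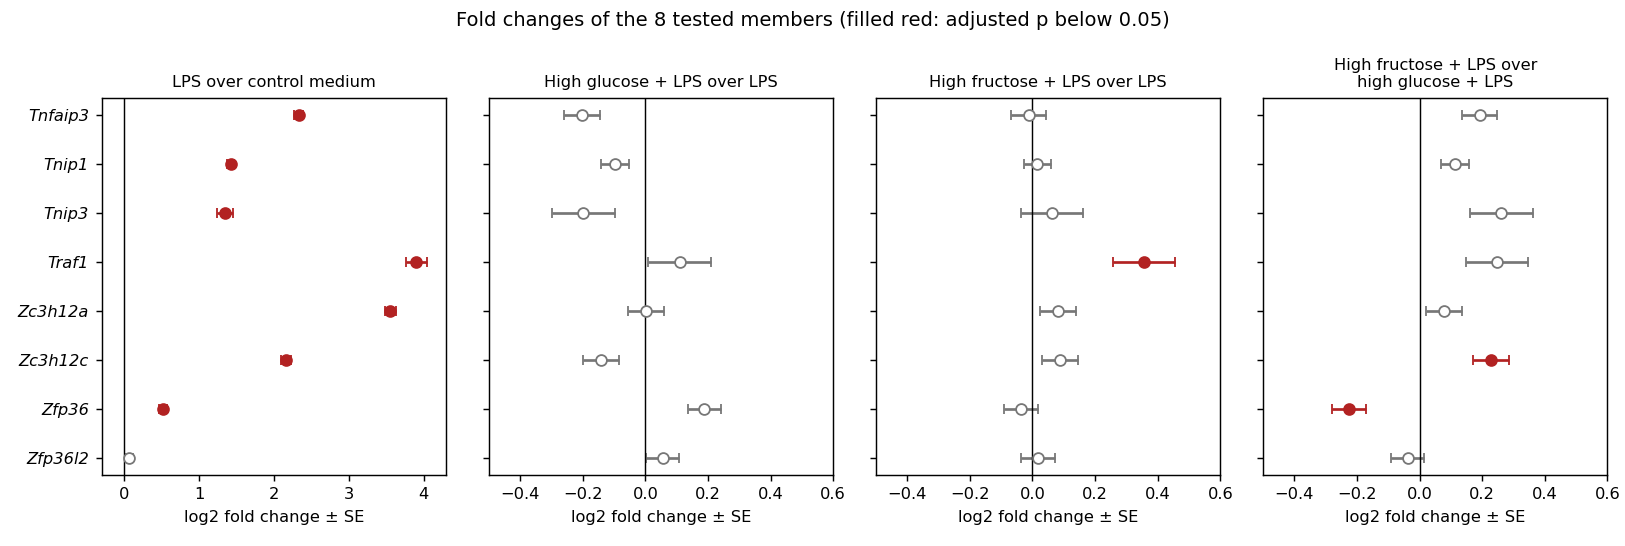
log2 fold changes ± SE (horizontal axes) of the 8 tested genes in the 4 comparisons, filled red at an adjusted p below 0.05; the first panel runs to 4.3 and the others to 0.6. Of the filled points 7 stand in the LPS panel, 0 in the high-glucose panel, 1 (Traf1) in the high-fructose panel and 2 (Zc3h12c and Zfp36) in the direct comparison of the sugars.

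Ordered by mean FPKM, control medium was lowest for 8 of the 9 genes, the exception being Zfp36l1, while the order of the groups with LPS differed between genes. High fructose, LPS in control medium and high glucose followed in that order from the top for 4 genes, Tnip1, Tnip3, Zc3h12a and Zc3h12c. For Tnfaip3 the order from the top was LPS in control medium (13.4 ± 0.491), high fructose (13.3 ± 0.260), high glucose (11.6 ± 0.551) and control medium (2.66 ± 0.199, SD, n = 3 each), and the first 2 did not differ beyond their spread. For Zc3h12a it was high fructose (28.96 ± 0.667), LPS (27.5 ± 0.801), high glucose (27.4 ± 1.08) and control medium (2.33 ± 0.251), and the ranges of the groups with LPS overlapped from each to the next. For Zfp36 it was high glucose (22.9 ± 0.433), LPS (20.1 ± 0.177), high fructose (19.6 ± 1.06) and control medium (14.0 ± 0.438), with LPS and high fructose overlapping. For Zfp36l2 the means of 52.6 ± 2.67 with high glucose, 51.2 ± 2.22 with high fructose, 50.7 ± 1.92 with LPS and 48.7 ± 1.72 FPKM in control medium lay close, and each range overlapped that of the next.

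The genes most like each member were found by the root mean square distance between log2 CPM (counts scaled to library size) profiles over the 12 libraries, each centred on its own mean. For the members that rose with LPS, that comparison gave the largest log2 fold change of the 4. The step between libraries with and without LPS therefore weighs in their profiles. For Zfp36l2 that change was only 0.06. Tnip1 was closest to Nfkb1, for the NF-kB subunit p50 and its precursor (distance 0.053), and to Hmox1 (0.0653). Zc3h12a was closest to Tnf (0.171) and Nfkbiz (0.182), and Traf1 to Nfkbiz (0.299) and Oasl1 (0.305). Tnfaip3 was closest to Pou2f2 (0.123) and Plpp3 (0.127), and Zc3h12c to Slc11a2 (0.109) and Pou2f2 (0.113). Tnip3 was closest to C130026I21Rik (0.121) and Xylt2 (0.124), Zfp36 to Ktn1 (0.0707) and Chmp4b (0.0737), and the nearly flat Zfp36l2 to Abcf2 (0.0326) and Slc7a5 (0.0373).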

How the data were processed

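For 12 libraries the authors deposited a table of raw counts for each gene, made with featureCounts 1.5.0-p3 on mm10 per the submitters' processing notes, and an FPKM table. Each deposited FPKM value equalled the count divided by gene length and by 1 constant per library (largest deviation 1.18e-07%, over genes with 200 counts or more). The sources used here do not name the aligner, annotation release or strand setting. Gene coordinates equalled those of GENCODE M21 for all 9 genes. Libraries of a group differed by more than sampling noise (chi-square per degree of freedom of 3.47 or more for each pair).

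The test was run on these counts in edgeR 4.0.16 (R 4.3.3), using filterByExpr (12766 genes kept), TMM factors and 1 quasi-likelihood model over all 12 libraries with a coefficient per group. P-values were adjusted by Benjamini-Hochberg within each comparison and called below 0.05. Standard errors and 95% intervals came from the F statistic. The procedure was also run on simulated data, but how often it finds differences as small as those among the sugars is not given here. Alternatives used DESeq2 1.42.0, limma 3.58.1 on log2 FPKM plus 0.1 or 1, other scalings, no filter, a replicate block, only the 2 groups compared, and 1 library left out. Exon overlap and motifs were counted on GENCODE M21 and RefSeq.

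The 9 genes, the lists and the tests were chosen with earlier results of these data known. All 9 genes were named, with up to 4 called genes of each list under LPS and 2 in each other comparison by smallest adjusted p, Tnf, and 2 nearest profiles per gene. Each of the 4 comparisons used 3 libraries against 3. Intervals on counts cover counting error only.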

Additional observations from a re-analysis of the deposited data

Results flagged for a closer look

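Zc3h12c and Zfp36 differed between the raised sugars by a test of the difference itself, high fructose over high glucose with LPS. For Zc3h12c the log2 difference was 0.229, with 29.6 ± 0.149 FPKM with high fructose, against 25.3 ± 1.74 FPKM with high glucose (SD, n = 3 each; edgeR adjusted p = 0.0329). For Zfp36 it was -0.225, with 19.6 ± 1.06 FPKM with high fructose, against 22.9 ± 0.433 FPKM with high glucose (adjusted p = 0.0216). All 3 libraries of each group showed the direction. With 1 library left out, the Zc3h12c call was kept in 1 of 6 fits and the Zfp36 call in 2 of 6. Against LPS in control medium neither gene passed by edgeR with either sugar. The adjusted p for Zc3h12c was 0.278 with high glucose and 0.533 with high fructose. For Zfp36 it was 0.0924 and 0.827. Groups of 3 libraries are too small for a search for single libraries far from the others.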

How the results depend on the processing

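LPS raised the same 7 genes under every alternative tried, while the calls among the sugars moved with the setting. Of 512 values of single genes under an alternative, 468 kept direction and call, 24 lost a call, 3 gained one and 17 changed sign. The cause of these changes was not tested. The lost calls were 10 with high fructose, where the Traf1 call was kept under 6 of 16 alternatives, and 14 between the sugars. Between the sugars the Zc3h12c call was kept under 7 of 16 alternatives and the Zfp36 call under 11 of 16. No changed sign belonged to a called value. Zfp36l2 under LPS became -0.03076 with library totals. For Zc3h12a with high glucose the value was -0.001908 with RLE factors, -0.003536 with library totals, -0.001443 without a filter, -0.001877 with DESeq2, -0.0009216 with only the 2 groups, and with limma -0.003032, -0.002926 and -0.003032 (pseudocount 0.1, 1, and 0.1 without a filter). Leaving out 1 library moved it over -0.02616 to 0.0304. With high fructose the same step moved Tnfaip3 over -0.03758 to 0.01635, Tnip1 over -0.01229 to 0.04318, Tnip3 over -0.01734 to 0.1538 and Zfp36l2 over -0.01385 to 0.04891.

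With high glucose DESeq2 called 1 of the 8 genes and 329 genes in all, against 0 and 199; no filter gave 427 genes, limma 132, 130 and 100, and leaving out 1 library 67 to 177. With high fructose the 1 member called became 0 with upper-quartile factors, library totals and each limma fit, and 0 to 1 without 1 library. Between the sugars, 2 members called became 0 with only the 2 groups (247 genes, against 475), 1 with each limma fit, and 0 to 1 without 1 library. Of all LPS calls 52.8% were higher, against 41.4% with upper-quartile factors and 32.4% with library totals.

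The values do not settle whether replicate numbers pair the libraries. Of 18 same-numbered pairs, 4 had a correlation of deviations over 0.1 (range -0.194 to 0.243). Pairs with different numbers ranged from -0.231 to 0.185. Of the 12 libraries, 6 matched best with their own number. With a replicate block, high glucose had 1 member, Tnfaip3 (adjusted p = 0.0320), and 391 genes called, and the sugars differed in 3 members, Tnfaip3 (0.0282) being the added one, and 735 genes.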
